A study of Mus musculus with 2 samples.

Results

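The 10 endothelial junction and connexin genes *Cdh5*, *Cldn5*, *Esam*, *Jam2*, *Jam3*, *F11r*, *Tjp1*, *Gja1*, *Gja4* and *Gja5* were read in single yolk sac PK44 cells. They were chosen by name as adherens, tight and gap junction genes, and all 10 had a row among the 23154 genes of the count tables. PK44 cells are hemogenic endothelial cells of the mouse embryo (C57BL/6 background), sorted as CD41-CD43-CD45-CD31+CD201+Kit+CD44+ cells. Here they came from the E10.0 yolk sac, with no treatment and no second condition. Replicate 1 held 43 cells and replicate 2 held 44 cells, each cell with its own barcode, and the libraries shared 0 barcodes. A cell had 13218 to 956593 counts, with medians of 141577 counts in replicate 1 and 238898 in replicate 2. Nothing in the labels says that the libraries came from separate litters, so p-values speak for these 2 libraries only.

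Endothelial cells are joined by several kinds of contact. In adherens junctions VE-cadherin binds its like on the next cell and is tied to actin through catenins. In tight junctions claudins and immunoglobulin-like adhesion molecules seal the cleft and are held by scaffold proteins. Gap junctions are channels made of connexins, which pass ions and small molecules between neighbours. During the endothelial-to-hematopoietic transition, which depends on the transcription factor *Runx1*, cells leave the vessel wall and give up these contacts. The genes were therefore described within each library and against the level of *Runx1*.

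Levels are CPM, counts scaled to a total of 1000000. For a library, counts were summed over its cells. Transcripts were tagged at their 3′ end, so CPM was not divided by transcript length. By the mean CPM of the 2 libraries the order was *Cldn5*, *Cdh5*, *Esam*, *Gja5*, *Gja4*, *F11r*, *Tjp1*, *Jam3*, *Gja1* and *Jam2*. From *Cldn5* down to *Tjp1*, the range of the 2 library values of each gene overlapped that of the next gene. Read within each library, *Cdh5* lay above *Esam* in both (463 against 289 CPM and 632 against 524 CPM). *Gja4* likewise lay above *F11r* (193 against 126 CPM and 548 against 205 CPM). The other neighbours down to *Tjp1* changed order between the libraries. *Tjp1*, *Jam3*, *Gja1* and *Jam2* did not overlap with each other.

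*Cdh5*, which encodes VE-cadherin, lies on chromosome 8 of GRCm38 (104101625 to 104144511, plus strand). Its level was 463 CPM in replicate 1 against 632 CPM in replicate 2, a mean of 548 ± 120 CPM (SD, n = 2 libraries). It was the one gene of the 10 with a count in 87 of 87 cells, and 83 cells had 10 or more counts. Over cells it ran from 16.98 CPM through a median of 519 CPM to 1956 CPM, so that all cells carried the transcript while its level varied widely.

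*Cldn5* encodes the main claudin of endothelial tight junctions (chromosome 16, 18776847 to 18778262, plus strand). Its level was 389 CPM in the first library and 961 CPM in the second (675 ± 404 CPM), and 85 of 87 cells had a count. *Esam* encodes an endothelial adhesion molecule of the immunoglobulin family (chromosome 9, 37528078 to 37538319, plus strand). It had 289 and 524 CPM (406 ± 166 CPM) and a count in 81 of 87 cells. *Tjp1*, the gene of the zonula occludens scaffold protein that ties tight junctions to actin (chromosome 7, 65296165 to 65527781, minus strand), was at 163 and 160 CPM, with a count in 84 of 87 cells. Of the 10 genes it was the one whose level differed least between the libraries (162 ± 2.105 CPM).

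The 3 junctional adhesion molecule genes were unlike each other in level. *F11r*, which encodes JAM-A (chromosome 1, 171437535 to 171464603, plus strand), was read at 126 and 205 CPM in the 2 libraries and was counted in 80 of 87 cells. *Jam3*, which encodes JAM-C (chromosome 9, 27097384 to 27155421, minus strand), had 93.1 and 64.0 CPM and a count in 68 cells. *Jam2*, which encodes JAM-B (chromosome 16, 84774123 to 84825928, plus strand), had 21.7 and 8.34 CPM, with a count in 17 cells and 10 or more counts in 7. In replicate 1, 3 cells held 98.97% of all *Jam2* counts, and in replicate 2 3 cells held 80.2%, so its library values rested on single cells.

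The 3 connexin genes differed from each other in level and in how unlike the libraries were. *Gja5* (chromosome 3, 96904693 to 97077416, plus strand), a connexin gene of arterial endothelium, stood at 126 CPM in replicate 1 but at 615 CPM in replicate 2 (371 ± 345 CPM), 4.86-fold more. *Gja4* (chromosome 4, 127311421 to 127314039, minus strand), the connexin gene most often found with it in arteries, had 193 and 548 CPM (370.3 ± 251 CPM), 2.84-fold more in replicate 2. *Gja1* (chromosome 10, 56377330 to 56402513, plus strand), a connexin gene active in many cell types, was far lower with 26.1 and 30.6 CPM. With 1 library each, no test between the libraries was possible. Over cells, *Gja5* had a median of 10.01 CPM and a highest value of 1612 CPM in replicate 1, against 147 CPM and 3837 CPM in replicate 2. The median lay far below the library value in both. The 3 cells with the most counts held 71.3% of *Gja5* in replicate 1 and 44.2% in replicate 2, and 61.9% and 34.4% of *Gja4*.

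The share of cells with a count depended on depth. 34 of 43 cells of replicate 1 had a count of *Gja5*, and as many one of *Gja4* (79.1%, exact 95% interval 64.0% to 89.96%) whereas in replicate 2 both were counted in 44 of 44 cells (lower bound 92.0%). Cells were then thinned to 20000 counts, and 1 cell of replicate 1 with fewer counts was left out. Of the cells thinned, 33.3% in replicate 1 and 84.1% in replicate 2 kept a *Gja5* count, and 50.0% and 75.0% a *Gja4* count. The intervals cover counting error only. With 10 or more counts as the criterion, *Gja5* passed in 10 and 36 cells. The libraries thus differed in *Gja5* by each of these measures. In both libraries together *Cdh5* went from 100% of cells to 96.5% when thinned, *Gja1* from 54.02% to 23.3% and *Jam2* from 19.5% to 4.65%.

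**Figure D1:**
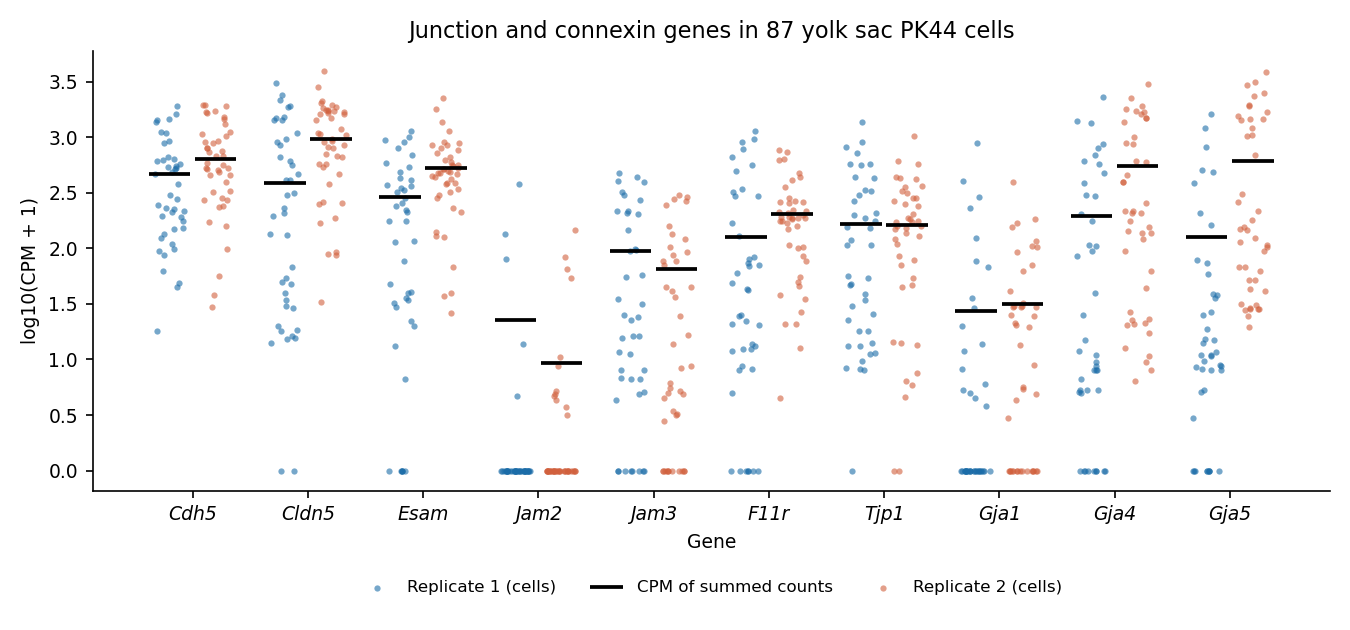
Each point is 1 cell, with log10(CPM + 1) of the gene on the vertical axis and the genes along the horizontal axis, replicate 1 in blue and replicate 2 in orange, and black bars give the CPM of the summed counts of a library. *Cdh5* lies above 0 in all 87 cells, while *Gja4* and *Gja5* spread from 0 or a few CPM to highest values of 3003 CPM and 3837 CPM.

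Of the 10 genes, 6 matched an entry among RefSeq promoter sequences of GRCm38.p6, of which the 250 bases before the transcription start are shown for the 3 whose transcripts passed the test against *Runx1* given further on. Capitals mark RUNX core letters (TGTGGT or TGCGGT) and ETS core letters (AGGAAG or CGGAAG) on either strand. RUNX letters occurred 2 times for *Cldn5* and 0 times for *Gja4* and *Gja5*, and ETS letters 1 time for *Gja5* and 0 times for the other 2. The windows of *Tjp1* and *Gja1*, not shown, held ETS letters 1 time each, and that of *F11r* held neither. No match overlapped another. In 32851 promoters of the same length, 18.6% held the RUNX letters and 39.2% the ETS letters. The *Gja5* start lies inside the longer gene model given above. Each match describes these letters only.
*Cldn5*, chr16:18776597-18776846, plus strand: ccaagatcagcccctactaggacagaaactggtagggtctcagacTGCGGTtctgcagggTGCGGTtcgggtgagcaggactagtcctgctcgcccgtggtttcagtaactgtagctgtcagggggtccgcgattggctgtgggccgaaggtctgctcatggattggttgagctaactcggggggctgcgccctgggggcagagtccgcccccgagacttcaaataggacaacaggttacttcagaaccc
*Gja4*, chr4:127314040-127314289, minus strand: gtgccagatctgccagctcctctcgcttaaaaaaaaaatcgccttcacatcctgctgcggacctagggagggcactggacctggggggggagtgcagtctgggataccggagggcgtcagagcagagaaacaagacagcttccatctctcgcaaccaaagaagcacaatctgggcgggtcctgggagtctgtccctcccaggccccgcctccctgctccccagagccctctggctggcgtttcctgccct
*Gja5*, chr3:97032152-97032401, plus strand: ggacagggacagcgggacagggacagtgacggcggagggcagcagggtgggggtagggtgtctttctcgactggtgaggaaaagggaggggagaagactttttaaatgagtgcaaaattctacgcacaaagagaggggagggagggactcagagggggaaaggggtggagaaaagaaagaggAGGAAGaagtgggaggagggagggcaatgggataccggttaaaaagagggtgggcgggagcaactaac

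Cells were then divided within each library at the library's median *Runx1* CPM. In replicate 1 the 21 *Runx1*-high cells had 52.7 to 1087 CPM of *Runx1* and the 22 *Runx1*-low cells 0 to 52.2 CPM. In replicate 2 the 22 high cells had 11.2 to 835 CPM and the 22 low cells 0 to 8.85 CPM. The dividing level therefore differed between the libraries, and cells close to it were on either side by little. *Runx1*-low cells were shallower, where the median cell had 95376 counts (260240 in *Runx1*-high cells) in replicate 1 and 213444 counts (271734) in replicate 2. Counts were summed per library and class into 4 sums and compared by edgeR's quasi-likelihood test. The library was a block, since both classes of a library are cells of one library. The spread behind the p-values was estimated over genes together. A small p therefore does not show that a gene changed alike in the 2 libraries. *Runx1* made the classes and was not tested.

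Adherens, tight and gap junction transcripts were all among those lower in *Runx1*-high cells. *Cdh5*, *Cldn5*, *Gja4* and *Gja5* fell at an adjusted p of 0.05, and 0 of the 10 genes rose. Over all 10629 genes tested, 1.56% passed in either direction, 1.19% lower (126 genes) and 0.376% higher (40 genes) in *Runx1*-high cells. The median log2 fold change of *Runx1*-high over *Runx1*-low cells was -1.09 over the 10 genes and 0.07 over all genes tested. 7 of the 10 genes were lower in the *Runx1*-high cells of both libraries, as were 26.3% of all genes tested. The calls depended on the block and on how cells were divided by *Runx1*. With a *Runx1* count against none, edgeR called 0 of the 10, 4 of which had an unadjusted p under 0.05, and in cells thinned to 20000 counts *Cdh5* was not called (adjusted p = 0.212 by edgeR). Without the block edgeR called 0 of the 10 genes, 5 of which had an unadjusted p under 0.05 (5.53% of all genes did), and 1 of all genes (0.00941%). With the block, 6 of the 10 had an unadjusted p under 0.05, as had 8.67% of all genes. DESeq2 with the block called 4 of the 10, all lower, against 2.91% of all genes (2.12% lower and 0.79% higher).

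*Cdh5* had 732 CPM in *Runx1*-low and 315 CPM in *Runx1*-high cells of replicate 1, and 931 and 432 CPM in replicate 2. Both low values lay above both high values. The log2 fold change was -1.20 (standard error 0.31, adjusted p = 0.0113 by edgeR with Benjamini-Hochberg adjustment, from 0.000894 to 0.773 over the alternatives). The change was of like size in the single libraries, -1.28 in replicate 1 and -1.11 in replicate 2. *Cdh5* had a count in all cells of both classes, so that the transcript was still counted in each *Runx1*-high cell. At 100 CPM or more, a level chosen after the values were seen, it was found in 18 of 22 low and 18 of 21 high cells of replicate 1 and in 22 of 22 and 18 of 22 cells of replicate 2.

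*Cldn5* had 628 CPM in *Runx1*-low and 257 CPM in *Runx1*-high cells of replicate 1, and 1467 and 621 CPM in replicate 2. Within each library it was lower in *Runx1*-high cells, but the high cells of replicate 2 and the low cells of replicate 1 had nearly the same level. The log2 fold change was -1.30 (standard error 0.29, adjusted p = 0.0019 by edgeR, from 5.2e-05 to 0.875 over the alternatives). Medians over cells went the same way, from 441 to 130 CPM in replicate 1 and from 1549 to 641 CPM in replicate 2.

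*Gja5* had the largest fitted change of the 4 with the classes and block used here, though not under each setting. It had 289 CPM in *Runx1*-low and 36.6 CPM in *Runx1*-high cells of replicate 1, and 1252 and 187 CPM in replicate 2. Both low values lay above both high values. The log2 fold change was -2.89 (standard error 0.35, adjusted p = 4.84e-13 by edgeR, from 1.36e-17 to 1.00 over the alternatives), and 81.3% and 81.8% of all *Gja5* counts of replicates 1 and 2 were in *Runx1*-low cells. The medians over cells differed less, with 12.0 against 9.97 CPM in replicate 1 and 850 against 108 CPM in replicate 2. In replicate 1, 3 cells held 87.7% of the *Gja5* counts of the low class, so that the sum of that library rested on few cells while its typical low and high cells were alike. With cells thinned to 20000 counts, deep cells weighed no more than others. The log2 fold change was then -1.78, smaller than that of *Gja4* (-2.01). With a *Runx1* count against none it was -1.09, the smallest of the 4.

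*Gja4* had 436 CPM in *Runx1*-low and 58.9 CPM in *Runx1*-high cells of replicate 1, and 984 and 255 CPM in replicate 2. Here too both low values lay above both high values. The log2 fold change was -2.45 (standard error 0.35, adjusted p = 3.3e-09 by edgeR, from 1.65e-14 to 0.725 over the alternatives). Medians over cells were 26.3 against 8.51 CPM in replicate 1 and 501 against 140 CPM in replicate 2, and 3 cells held 77.1% of the counts of the low class in replicate 1. Cells with 100 CPM or more of *Gja4* were 9 of 22 low and 7 of 21 high cells in replicate 1 and 15 of 22 and 14 of 22 in replicate 2. Similar numbers of cells of both classes thus passed that level.

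**Figure D2:**
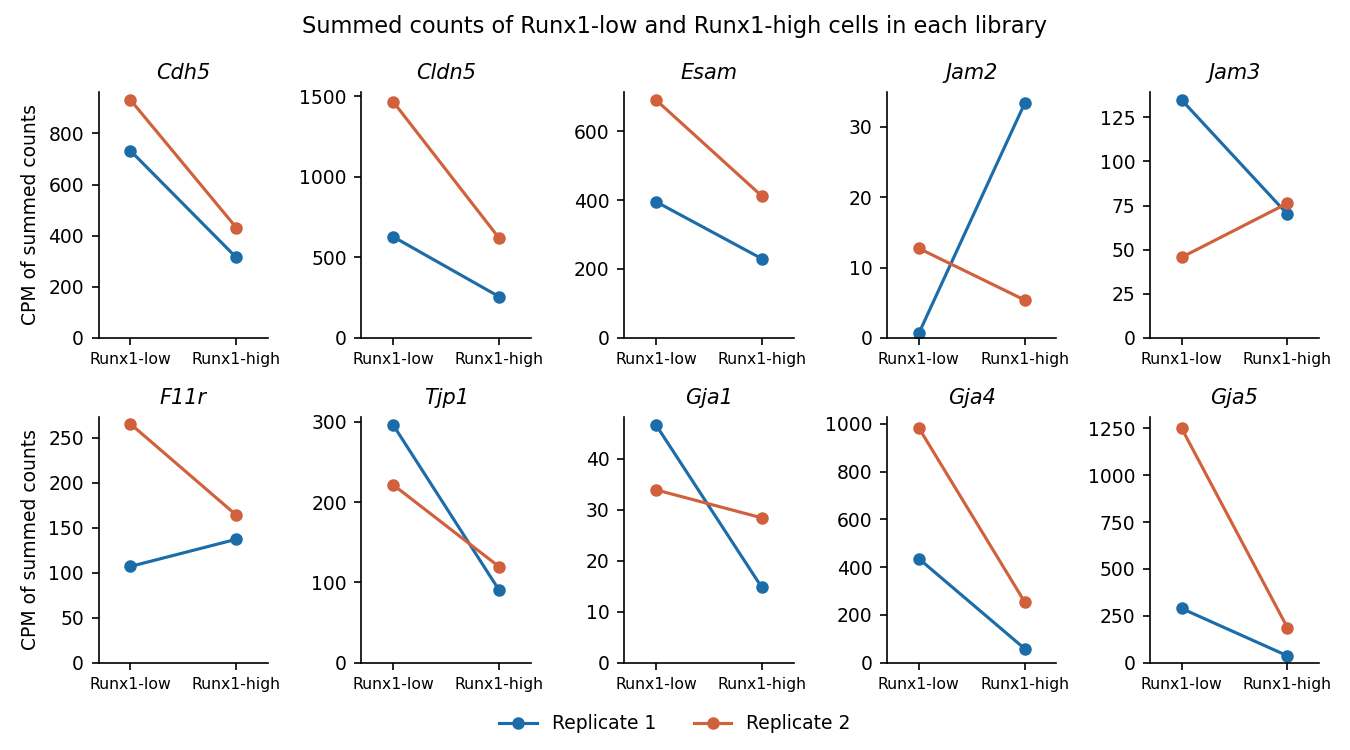
Each panel gives 1 gene, with the CPM of the counts summed over *Runx1*-low and *Runx1*-high cells on the vertical axis, replicate 1 in blue and replicate 2 in orange, and a line joining the 2 sums of a library. *Cdh5*, *Cldn5*, *Esam*, *Tjp1*, *Gja1*, *Gja4* and *Gja5* are lower in *Runx1*-high cells of both libraries, whereas the lines of *Jam2*, *Jam3* and *F11r* run in opposite directions.

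The other genes did not pass. *Tjp1* had 296 and 90.5 CPM in *Runx1*-low and *Runx1*-high cells of replicate 1 and 221 and 120 CPM in replicate 2, a log2 fold change of -1.33 (standard error 0.44, adjusted p = 0.103 by edgeR, from 0.0655 to 1.00 over the alternatives). Its estimated change was about that of *Cldn5* with a larger error. *Esam* had 395 and 230 CPM in replicate 1 and 691 and 412 CPM in replicate 2, a log2 fold change of -0.80 (standard error 0.33, adjusted p = 0.324 by edgeR). Its median over cells was 146 CPM in low against 211 CPM in high cells of replicate 1, opposite to the sums, and 539 against 402 CPM in replicate 2.

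The junctional adhesion molecules had no common direction. *F11r* had a log2 fold change of 0.30 in replicate 1 and -0.70 in replicate 2, and *Jam3* one of -1.0002 and 0.73. *Jam2* had 0.63 against 33.3 CPM in replicate 1 and 12.7 against 5.39 CPM in replicate 2, from 2 and 3 cells with a count in replicate 1. Adjusted p was 1.00 by edgeR for each of these 3 genes. *Gja1*, the remaining connexin gene, had a log2 fold change of -0.99 with a standard error of 1.21, so that neither a fall of the size seen for *Cdh5* nor no change could be told from these sums. Its cells ran the other way in replicate 2, with a median of 0.984 CPM in low and 21.5 CPM in high cells and a count in 11 and 18 of 22 cells, and rho with *Runx1* was 0.128 and 0.154.

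**Figure D3:**
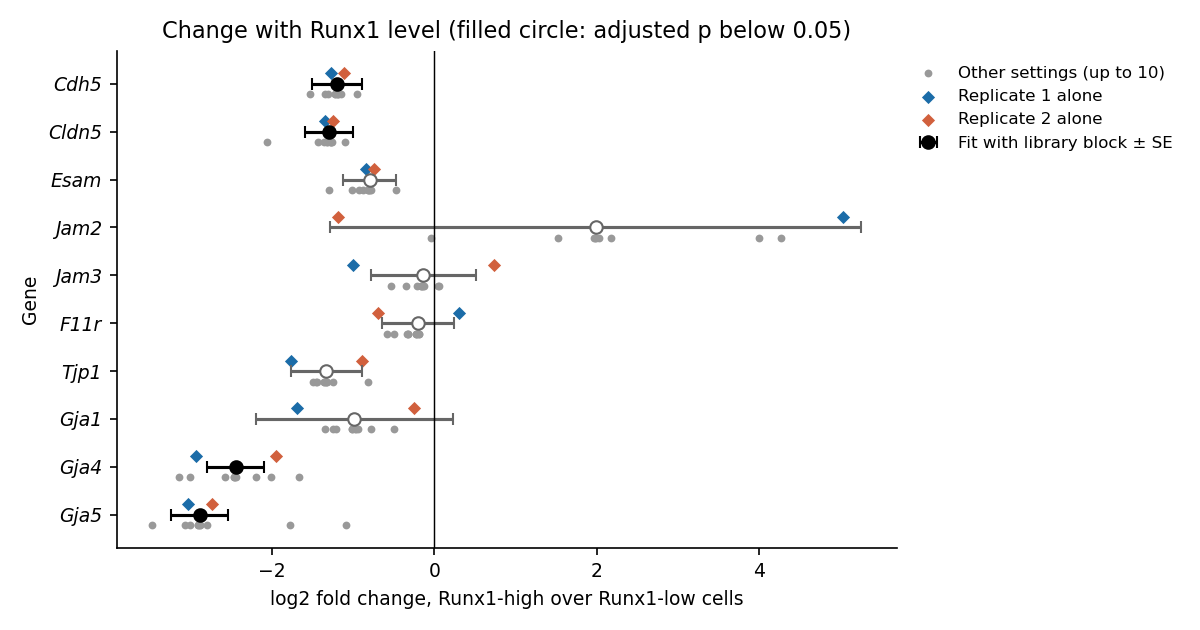
Circles give the log2 fold change of *Runx1*-high over *Runx1*-low cells from the fit with the library block, with bars of 1 standard error and filled where the adjusted p was below 0.05, diamonds give the change in each library alone, and grey points give the other settings. *Cdh5*, *Cldn5*, *Gja4* and *Gja5* lie below 0 under each setting, and *Jam2* has the widest error.

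Cells of a library were also put into 3 parts of 14 or 15 cells by their *Runx1* CPM, and the genes differed in where their levels dropped. *Cldn5* had 683, 580 and 124 CPM from the lowest to the highest *Runx1* part of replicate 1, and 1508, 1196 and 505 CPM in replicate 2, so the larger step was between the middle and the highest part. *Gja4* had 578, 142 and 34.7 CPM in replicate 1 and 1158, 401 and 259 CPM in replicate 2. Its larger step in CPM was between the lowest and the middle part, but in replicate 1 the steps were of like fold. *Gja5* had 435, 27.2 and 36.6 CPM in replicate 1, with its drop at the lower end, and 1333, 702 and 136 CPM in replicate 2, with drops at both ends. *Cdh5* had its larger step at the lower end in replicate 1 (933, 369 and 291 CPM) and at the upper end in replicate 2 (895, 828 and 369 CPM). These steps are those of summed counts, are given as values and were not tested. Medians over cells did not always step alike. For *Gja4* in replicate 1 they were 386, 7.07 and 7.67 CPM, with no second drop. For *Gja5* in replicate 2 they were 850, 1037 and 103 CPM, with a rise before the drop. The other medians of these genes had their larger step where the sums did.

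Over single cells the relation to *Runx1* was weaker than the sums show. Spearman's rho of *Cldn5* with *Runx1* was -0.351 over the 43 cells of replicate 1 and -0.501 over the 44 cells of replicate 2. It was -0.348 and -0.469 for *Cdh5*, and -0.339 and -0.366 for *Gja4*. For *Gja5* rho was -0.127 and -0.282. The remaining genes ran from -0.397 (*Esam* in replicate 2) to 0.172 (*F11r* in replicate 1). Cells of a library share that library and its depth, so no p is given. After thinning, rho of the 4 genes lay between -0.166 (*Gja5*, replicate 1) and -0.420 (*Cldn5*, replicate 2).

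**Figure D4:**
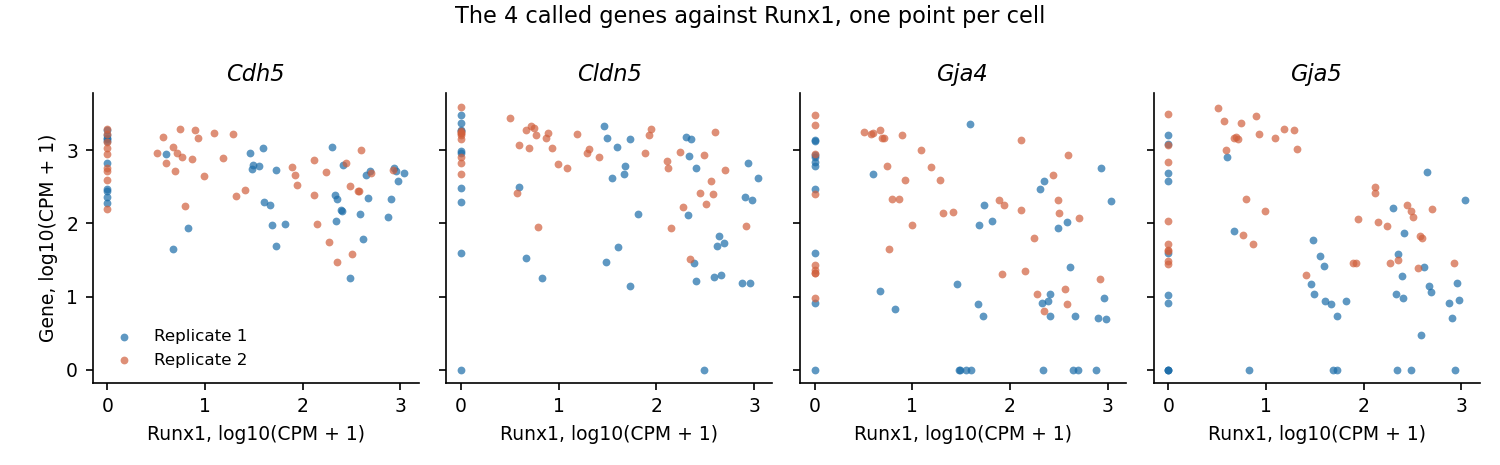
Each point is 1 cell, with log10(CPM + 1) of *Runx1* on the horizontal axis and of *Cdh5*, *Cldn5*, *Gja4* or *Gja5* on the vertical axis, replicate 1 in blue and replicate 2 in orange. Cells with no *Runx1* count spread over most of the range of *Gja5*, and the highest *Gja5* values are in cells with little *Runx1*.

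Each pair of *Cdh5*, *Cldn5*, *Tjp1* and *Gja4* had a rho above 0 in both libraries, lowest for *Cldn5* with *Tjp1* in replicate 2 (0.253). Some pairs with other genes did so too, such as *Cldn5* with *F11r* (0.249 in replicate 1 and 0.538 in replicate 2). The highest mean rho of the 2 libraries between any 2 of the 10 genes was that of *Cdh5* with *Tjp1* (0.578 in replicate 1 and 0.476 in replicate 2), followed by *Cdh5* with *Cldn5* (0.540 and 0.504). *Gja4* and *Gja5* had a rho of 0.812 in replicate 2 but of 0.111 in replicate 1. At 100 CPM or more, 25 of the 44 cells of replicate 2 had both connexins, 4 had *Gja4* alone and 2 had *Gja5* alone. In replicate 1 only 6 of 43 cells had both, while 10 had *Gja4* alone and 2 had *Gja5* alone. *Jam3* stood apart, with a rho between -0.223 and 0.150 with each other gene in either library. *Gja1* also stayed between -0.163 and 0.120.

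**Figure D5:**
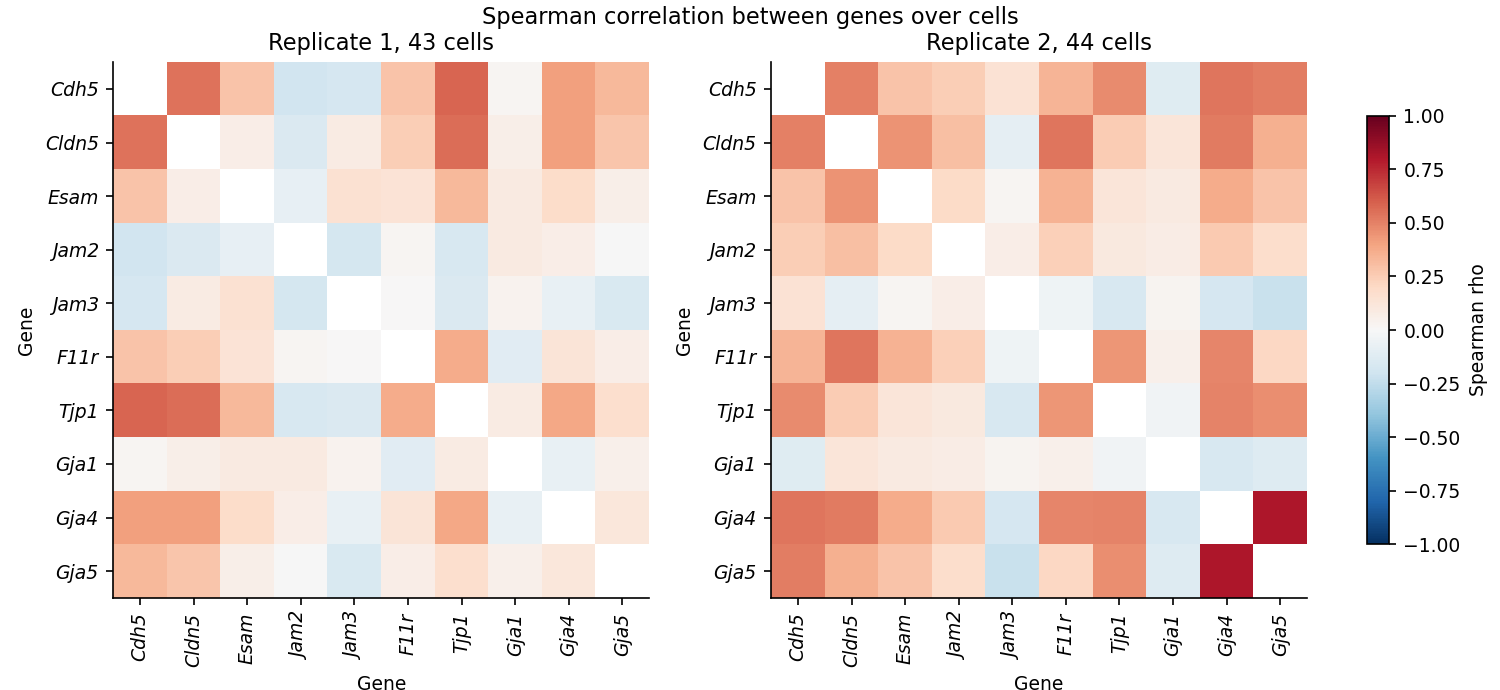
Colours give Spearman's rho between 2 genes over the cells of a library, red above 0 and blue below 0, for replicate 1 on the left and replicate 2 on the right. *Cdh5*, *Cldn5*, *Tjp1* and *Gja4* form a block of values above 0 in both libraries, and *Gja4* with *Gja5* is strong in replicate 2 alone.

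Among 3661 genes with a count in 50% or more of the cells of each library, those most like each junction gene over cells were found by the mean rho of the 2 libraries. *Cdh5* was most like *Col4a1* (0.628), a basement membrane collagen gene, *Cd93* (0.605) and *Clec14a* (0.594), both genes of endothelial surface proteins. *Cldn5* was most like *Clec14a* (0.593), *Crip2* (0.580) and *Sparc* (0.552). *Tjp1* was most like *Col18a1* (0.609), *Col4a1* (0.577) and *Clec14a* (0.528). *Clec14a* thus stood among the first 3 for each of these genes, and *Col4a1* for *Cdh5* and *Tjp1*. *Esam* was most like *Mmrn2* (0.516), *Prkcdbp* (0.501) and *Dll4* (0.489), a Notch ligand gene.

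Among the connexin genes, *Gja4* was most like *Col18a1* (0.558), which also stood first for *Tjp1*, *Sdpr* (0.552), a caveolar gene, and *Flt1* (0.549), a VEGF receptor gene. *Gja5* was most like *Fstl1* (0.623), *Igf2* (0.622), the growth factor gene, and *Vwf* (0.610), the von Willebrand factor gene. *F11r* was most like *Ralb* (0.484), *Crip1* (0.405) and *Tjp1* (0.405), and *Jam3* was most like *Oit3* (0.483), *Elp5* (0.389) and *Rpl28* (0.376). The median rho over the compared genes lay between -0.09 and 0.03 for each of the 10 genes. For *Jam2* and *Gja1*, the least abundant of the 10 genes, the highest values were those of *Cfap20* (0.326) and *Cul4a* (0.480), which were 0.00361 and 0.0749 in thinned cells.

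Of 82 other junction genes, 81 were in the tables, 25 of these had no count and 49 were tested. 3 fell and 0 rose in *Runx1*-high cells (6.12% of those tested, against 1.56% of all genes tested). Of these 3, only *Ptprb* came from the adherens, tight and gap junction lists. *Clec14a* and *Cd93* came from the list of other endothelial contacts, which also holds general endothelial surface genes. The median log2 fold change of the 49 was -0.83, against 0.07 over all genes tested. Among 13 tested adherens junction partners *Ptprb*, which encodes the phosphatase that binds VE-cadherin, fell (log2 fold change -1.58, adjusted p = 0.000579 by edgeR). After TMM scaling *Ptprb* stood at 572 CPM in low and 223 CPM in high cells of replicate 1, and at 729 and 207 CPM in replicate 2. The catenin genes, which link cadherins to actin, did not pass, with log2 fold changes of -0.48 for *Ctnnb1*, -0.91 for *Ctnna1* and 0.93 for *Ctnnd1*. On the same scale *Ctnnd1* had 29.8 CPM in low and 120 CPM in high cells of replicate 1, but 141 and 131 CPM in replicate 2. Of 14 tested tight junction genes 0 passed by edgeR or DESeq2 and 3 had an unadjusted p under 0.05 by edgeR, all 3 lower. The most abundant were *Cgnl1* (-0.83), *Amotl1* (-1.37) and *Mpdz* (-0.96).

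Among 20 tested genes of other endothelial contacts, *Clec14a* (log2 fold change -1.79, adjusted p = 3.82e-05) and *Cd93* (-1.45, adjusted p = 0.000703) fell by edgeR. *Icam2*, an adhesion molecule gene, had a log2 fold change of -1.09 (adjusted p = 0.0524 by edgeR). *Pecam1*, the gene of the CD31 of the sort, had one of -0.56 and *Rasip1* one of -0.88. After TMM scaling *Rasip1* stood at 483 CPM in low and 142 CPM in high cells of replicate 1. In replicate 2 it stood at 382 and 383 CPM. *Pecam1* had a count in 86 of 87 cells. Among other gap junction genes, 2 were tested and 0 passed by edgeR or DESeq2, with 0 at an unadjusted p under 0.05, *Panx1* at 25.1 CPM and *Gjc1* at 6.18 CPM as means of the libraries, and 14 of 18 had no count. The epithelial junction genes *Cdh1* and *Cldn6* had a count in 0 of 87 cells, where a limit of 3 cells would allow a share of up to 3.45% of cells with a count.

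Other cells could enter such a sort, so marker genes were read in the same classes. All 10 endothelial markers had counts, at 4258 to 6582 CPM in sum in *Runx1*-low and 2016 to 3363 CPM in *Runx1*-high cells, and 4 of 10 fell, among them *Cd93*, which also stands in the list of contacts. Of 8 arterial genes 5 fell and of 5 venous genes 1 fell, with sums of 1385 to 1655 against 490 to 681 CPM and of 300.0 to 474 against 114 to 190 CPM. Of 12 hematopoietic genes 2 rose, *Ikzf1* and *Coro1a*, with sums of 175 to 896 against 738 to 1254 CPM. Within each library their sum was higher in *Runx1*-high cells (896 to 1254 CPM in replicate 1 and 175 to 738 CPM in replicate 2). The classes overlapped only across libraries. Of the 12 genes, 8 were higher and 1 was lower in *Runx1*-high cells of both libraries. Over all genes tested, 1.19% fell and 0.376% rose. The part of these marker lists in the junction results was not tested.

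3 cells had 100 or more counts of each of the mesenchymal genes *Col1a1*, *Col1a2*, *Col3a1* and *Lum*, and all 3 were *Runx1*-low. The 7 mesenchymal genes summed to 817 to 2408 CPM in the low and 23.5 to 66.3 CPM in the high classes. Of these 7, 5 fell, against 1.19% of all genes tested. The 3 cells had 43.9 to 195 CPM of *Cdh5* and 33.0 to 87.7 CPM of *Cldn5*, below the medians of all cells. *Gja4* ran from 0 to 217 CPM and *Gja5* from 7.81 to 217 CPM in them, with 1 and 2 of the 3 cells above the medians of all cells (106 and 50.6 CPM). Without them the same 4 junction genes were called, with log2 fold changes of -1.32 for *Cdh5*, -1.43 for *Cldn5*, -2.58 for *Gja4* and -3.00 for *Gja5*. Erythroid genes summed to 4.41 to 33.1 CPM (*Hba-a1* at 0), endoderm and epithelial genes to 0 to 35.6 CPM (*Apob*, *Epcam*, *Cdh1* and *Cldn6* at 0) and mesothelial genes to 0 to 5.29 CPM (*Upk3b*, *Msln* and *Upk1b* at 0). Megakaryocyte genes summed to 9.21 to 137 CPM (*Gp1bb*, *Ppbp* and *Treml1* at 0) and macrophage genes to 176 to 337 CPM (*C1qa*, *C1qb* and *C1qc* at 0), of which *Mrc1*, which some endothelium also expresses, fell. The other tested genes of these 5 lists did not pass.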

How the data were processed

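The deposited values were whole-number counts per gene and cell of modified STRT-seq. The authors split reads by cell barcode, aligned them to the mm10 transcriptome with HISAT2 2.1.0, counted them with HTSeq, removed duplicates by UMI and filtered out poor cells. They stated a limit of more than 2000 genes per cell. In the deposited counts 1 cell of replicate 1 had 1941 genes, and it was kept here except in the alternative without it. The counts do not show whether all duplicates were removed. The barcode tables hold no measurement and were used only to compare barcodes between the libraries.

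Counts of all 87 cells were scaled to CPM or summed per library and *Runx1* class, and the sums were compared by the quasi-likelihood test of edgeR 4.0.16 (R 4.3.3), with the library as a block, after filterByExpr and TMM scaling. P-values were adjusted over all genes tested (Benjamini-Hochberg, threshold 0.05). The 2 sums of replicate 1 deviated together from their class means (r = 0.197 over 10630 genes). The authors named ROC and Wilcoxon tests over cells, which were not used because cells are not replicates. No doublet caller was run. Alternatives were no block, DESeq2 1.42.0, its size factors, no filter, cells thinned to 20000 counts, other divisions by *Runx1*, cells left out and each library left out. The fit was tested on simulated data. Coordinates came from GENCODE M21 on GRCm38 (mm10), and shares have exact (Clopper-Pearson) intervals. Python 3.11.15, pandas 2.3.3, numpy 2.4.6, scipy 1.17.1 and matplotlib 3.10.9 were used.

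Genes named were the 10 genes, *Runx1*, the 3 genes most like each (for *Jam2* and *Gja1* the first is given) and, from each list of other junction genes, up to 4 called and 3 uncalled genes of the highest mean CPM. From the marker lists, genes at 0 and some called ones were named after their values were seen. Genes and lists were chosen with earlier results of these data known.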

Additional observations from a re-analysis of the deposited data

How the results depend on the processing

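Without the replicate block edgeR called 0 of the 10 junction genes (adjusted p of 0.725 for *Gja5* and *Gja4*, 0.773 for *Cdh5* and 0.875 for *Cldn5*), 0 of the other junction genes (6 with an unadjusted p under 0.05) and 1 of all genes. Set as cells with a *Runx1* count against cells without, the classes gave 0 of the 10 (4 with an unadjusted p under 0.05), 0 of the other junction genes (3 unadjusted) and 5 of all genes. There the low class held 10 and 9 cells, the log2 fold change of *Gja5* was -1.09, and the median of all genes moved from 0.07 to 0.59. DESeq2 with the block called 295 genes, thinned cells 40 and the highest against the lowest of 3 *Runx1* parts 91. In thinned cells 3 of 9 tested junction genes were called, and *Cdh5* was not (log2 fold change -0.96). Classes from thinned *Runx1* counts called 5 of the 50 other junction genes tested, and 145 of all 10702 genes tested. There *Jam2* (-0.036) and *Jam3* (0.041) reversed, as did *Jam3* (0.061) for cells with against without a *Runx1* count. The cause was not tested. In each library alone the 4 called junction genes, the 3 other junction genes and all 166 called genes kept their direction, with no test possible from 2 sums. The genes were called from these same sums, so the shared direction is no separate support. *Cdh5*, *Cldn5*, *Gja4* and *Gja5* were below 0 under each setting run, from -1.53 to -0.96, -2.06 to -1.10, -3.14 to -1.67 and -3.48 to -1.09. Depth limits *Jam2* and *Gja1*, with 300 and 622 counts in all cells.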
